A study of Mus musculus with 6 samples.

Results

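The genes described here build, hold together and separate chromosomes: condensin, cohesin and its regulators, the SMC5/6 complex, type II topoisomerases, the chromosomal passenger complex and the kinases and adaptors of the spindle checkpoint. They were chosen by name, as every probe set whose platform gene symbol is exactly one of 39 symbols. All 39 genes were on the array, with 110 of the 45037 probe sets tested, and they are 39 of the 18193 genes that the array names with 1 symbol. RNA came from whole testis of mice aged 5 weeks, with 3 Phf13 knockout samples and 3 wild-type samples, 1 Affymetrix array each. Phf13 codes for a chromatin protein whose PHD finger binds methylated histone H3. The labels give neither the knockout allele nor the strain, and do not say that the arrays came from separate animals. The spread behind each p-value is thus that of these arrays, and may be technical. Values are log2 levels as deposited by the authors.

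Condensin is a ring of the SMC2 and SMC4 proteins closed by further subunits, which shortens chromosomes for division. Cohesin is a related ring that holds sister chromatids together until separase cuts it. In the testis both mitotic spermatogonia and meiotic spermatocytes use these complexes, and spermatocytes add germ-line forms of several cohesin subunits and the Aurora kinase AURKC. The spindle checkpoint delays the cut until every kinetochore is attached, and the chromosomal passenger complex, with Aurora kinase B or C as its enzyme, corrects wrong attachments.

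The brightest probe set of each of the 39 genes lay above the median of all values, 5.26, as did that of 12591 of all 18193 genes. This is not a call of detection. Of the 110 member probe sets, 9 were dimmer than the lower quartile, 3.69. All 9 spermatid and all 10 spermatocyte markers also lay above that median, whereas 4 of 6 epididymis markers (Adam7, Defb42, Lcn5 and Lcn9) were below the lower quartile. Phf13 stood at 6.71, 6.60 and 6.55 on the knockout arrays, against 9.55, 9.47 and 9.56 on the wild-type arrays (limma adjusted p = 7.7e-06), as the labels have it. The arrays were divided into 2 sets at the largest gap in the mean level of control probe sets for 18S ribosomal RNA. In the high-18S set that level was 12.03 for knockout 1, 12.34 for wild type 1 and 12.67 for wild type 2. In the low-18S set it was 9.87 for knockout 2, 9.69 for knockout 3 and 10.71 for wild type 3. For that reason differences of members with an unadjusted p under 0.05, and some others, are also given inside the high-18S and the low-18S set. A set holds only 3 arrays, with 1 array of a genotype standing alone, so no test was made inside it. Inside both sets the knockout arrays had lower 18S levels than the wild-type arrays. Genotype and 18S level are thus not separated inside a set either.

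No member passed the threshold, an adjusted p under 0.05 in limma over all probe sets, where 0.0999% of all probe sets and 0.137% of all genes passed. The smallest limma adjusted p of a member was 0.168. A gene is represented below by its brightest probe set unless another is named. Of the 39 genes, 28 had a lower mean in knockout and 11 a higher one, with a median log2 difference of -0.10, against 0.01 over all 18193 genes. That is 71.8% of members with a lower mean, against 47.9% of all genes and 56.4% of autosomal genes brighter than the median. At an unadjusted p under 0.05, 7 members were lower and 1 was higher, which is 17.9% and 2.56% of them, against 8.72% and 8.58% of all genes. All members are bright, and among autosomal genes brighter than the median 11.8% were lower at that p, with a median of -0.03. Without overlap of the knockout and wild-type arrays, 13 of 39 members were lower and 1 was higher, against 13.5% and 9.92% of all genes. Among autosomal genes brighter than the median, 2251 of 12126 were lower and 967 higher without overlap. On the level of probe sets, 23 of 110 were lower and 3 higher at an unadjusted p under 0.05, against 8.31% and 6.81% of all, and 29 were lower and 3 higher without overlap, against 10.7% and 8.62%. In tissue made of many cell types, fewer cells of a type and less RNA per cell cannot be told apart.

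**Figure D1:**
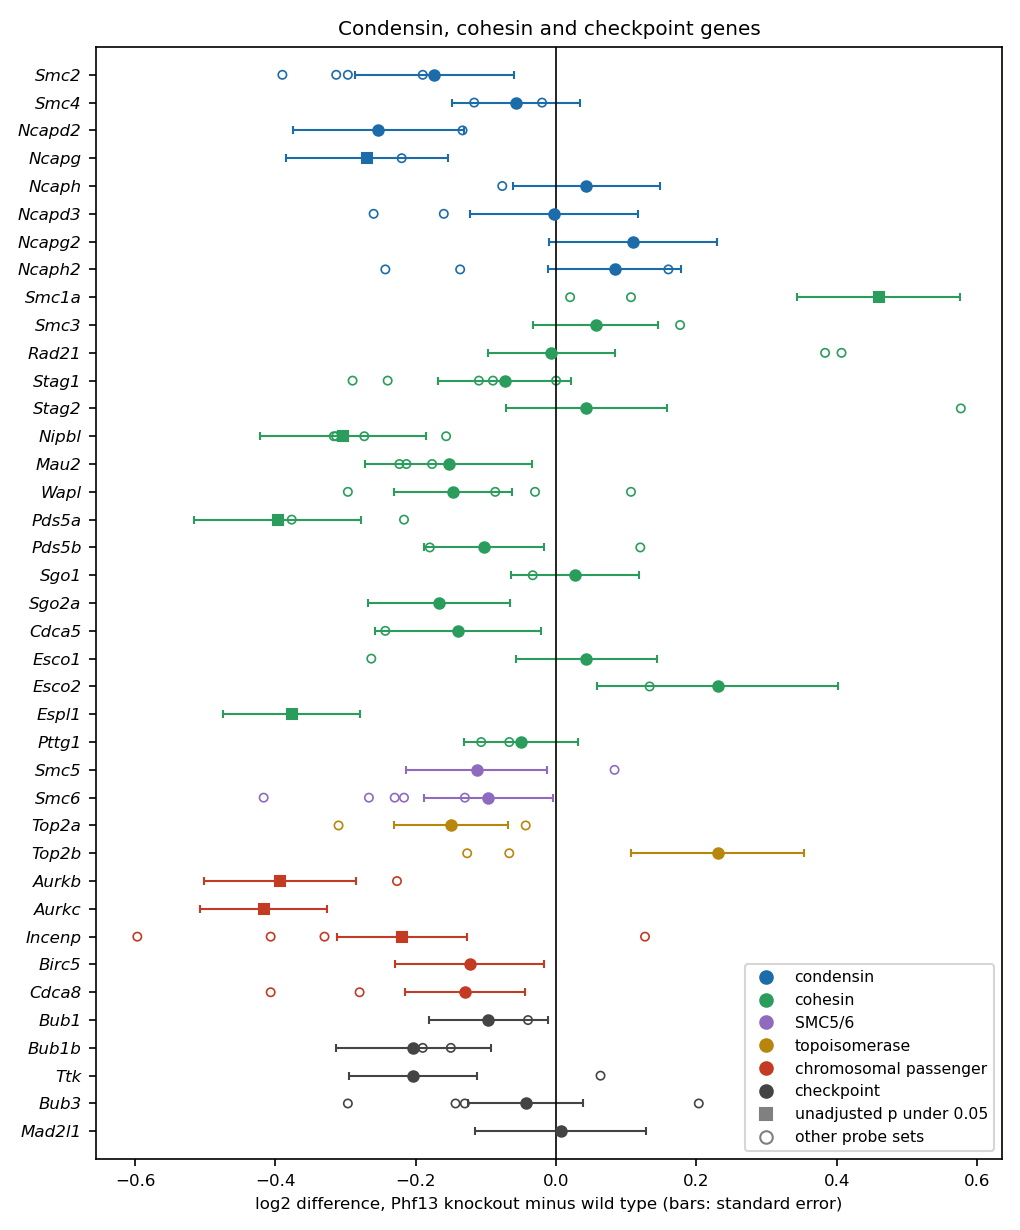
Log2 difference, Phf13 knockout minus wild type, for each of the 39 genes (vertical axis, coloured by group). Filled symbols with standard error bars are the brightest probe set (squares, unadjusted p under 0.05), and open circles are the gene's other probe sets; the filled symbols of the passenger genes all lie left of 0, from -0.42 to -0.12, and among filled symbols Smc1a lies farthest right at 0.46.

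The chromosomal passenger genes lay on one side of 0. All 5 had a lower mean in knockout, with a median of -0.22. At an unadjusted p under 0.05, 3 were lower, and 4 had groups that did not overlap. Of all genes, 8.72% were lower at that p and 13.5% without overlap. Among autosomal genes brighter than the median, 11.8% were lower at that p, and 2251 of 12126 without overlap. Of the 12 passenger probe sets 11 had a lower mean, 8 at that p and 9 without overlap. Of all probe sets, 8.31% were lower at that p and 10.7% without overlap. The median of the 5 genes was -0.33 in the high-18S set of arrays and -0.12 in the low-18S set.

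Aurkc encodes an Aurora kinase of the passenger complex in meiotic cells. Its only probe set stood at 8.61, 8.76 and 8.82 in knockout, against 9.12, 9.18 and 9.14 in wild type. Every knockout array was below every wild-type array, and the difference of -0.42 (SE 0.09) had the smallest p of the members (limma adjusted p = 0.168). It was -0.54 in the high-18S set and -0.35 in the low-18S set. With array weights it passed (limma adjusted p = 0.028, and 0.028 to 0.529 over 16 alternatives). In that setting 3186 of the 45037 probe sets tested passed, against 45 in the main fit.

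Aurkb encodes the other Aurora kinase of the same complex, which is not limited to germ cells. Its brighter probe set stood at 6.53, 6.78 and 6.50 in knockout and at 6.90, 7.10 and 6.99 in wild type. The groups again did not overlap, with a difference of -0.39 (SE 0.11, limma adjusted p = 0.213), or -0.47 and -0.35 in the high-18S and low-18S sets. By the ending of the name of this probe set, part of its probes may match further transcripts. The brightest probe sets of Incenp, Ncaph and Ncaph2 have the same ending. The other Aurkb probe set differed by -0.23 (SE 0.16, limma adjusted p = 0.534), with overlapping groups.

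Incenp encodes the scaffold that binds and activates the Aurora kinase. Its brightest probe set stood at 9.77, 9.90 and 9.80 in knockout, against 10.09, 10.11 and 9.93 in wild type, a difference of -0.22 (SE 0.09, limma adjusted p = 0.315). The groups did not overlap, but the difference was -0.33 in the high-18S set and -0.08 in the low-18S set. The knockout arrays lay below the wild-type arrays in 3 further Incenp probe sets, with differences of -0.33, -0.41 and -0.60. The last of these stood at 3.73, 3.57 and 3.77 in knockout, about the lower quartile of all values, so its size is uncertain. The fifth probe set, at 4.14, 4.04 and 3.80 in knockout and 3.89, 3.85 and 3.86 in wild type, differed by 0.13 with overlapping groups.

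Cdca8 encodes Borealin, which with Survivin brings the complex to centromeres. The 3 Cdca8 probe sets differed by -0.13, -0.28 and -0.41, and none of them had overlapping groups. The probe set with the largest of these differences stood at 8.28, 8.57 and 8.51 in knockout and at 8.86, 8.81 and 8.91 in wild type (SE 0.10, limma adjusted p = 0.198), or -0.56 in the high-18S set and -0.37 in the low-18S set. Its brightest probe set was nearly level on the knockout arrays, at 10.34, 10.35 and 10.34, against 10.40, 10.56 and 10.46 in wild type. Cdca8 lies on chromosome 4, as Phf13 and another member, Smc2, do.

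Birc5, which encodes Survivin, stood at 9.55, 9.80 and 9.79 in knockout and at 9.71, 9.89 and 9.91 in wild type. These groups overlapped, and the difference was -0.12 (SE 0.11, limma adjusted p = 0.619). Without knockout 1 it was -0.042.

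**Figure D2:**
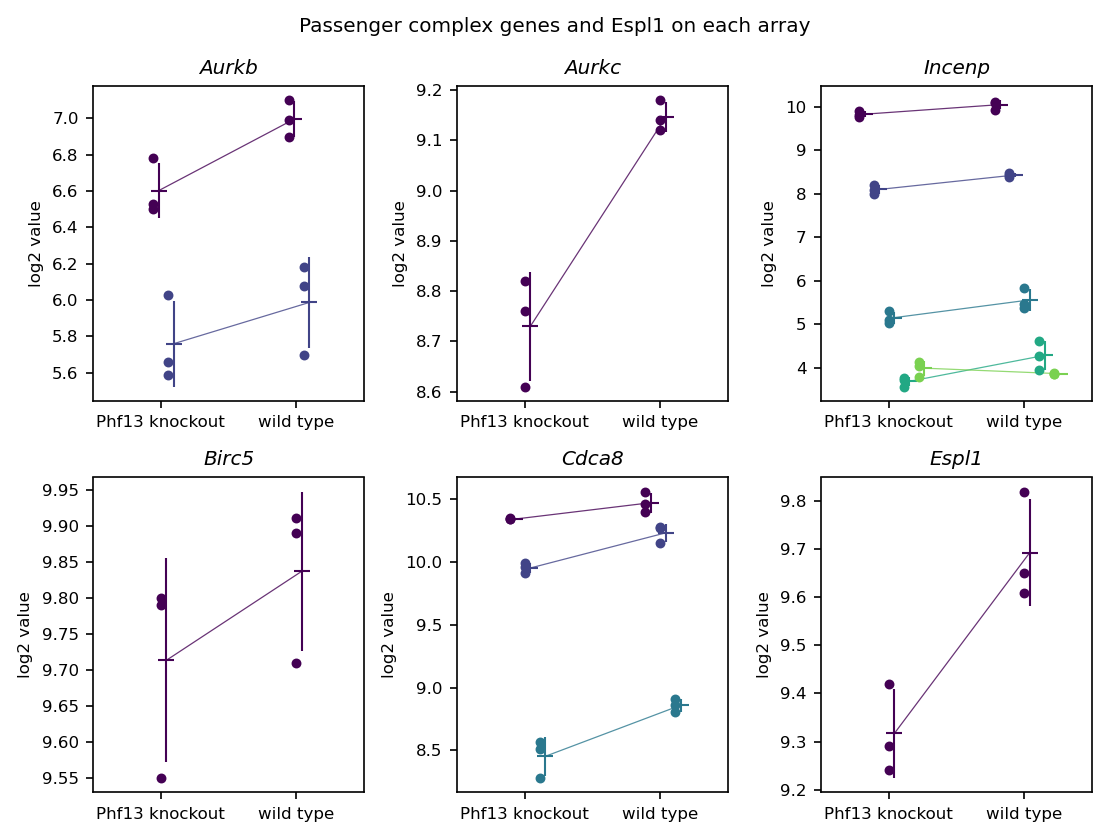
Log2 values of every probe set of the 5 passenger genes and of Espl1, knockout arrays left and wild-type arrays right in each panel. Points are arrays, bars are the mean ± SD (n = 3), a colour is a probe set and a line joins its means; axes do not start at 0. Aurkc lies at 8.61 to 8.82 in knockout and at 9.12 to 9.18 in wild type.

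Many genes of cell division share a pair of promoter elements known from cultured cells: the CCAAT box, bound by NF-Y, and the cell cycle homology region, TTTGAA in its common form, bound by the DREAM and MuvB complexes. RefSeq promoters (GRCm38.p6, 250 bases before to 50 after the annotated start) were at hand for 31 of the 39 members, and not for Smc4, Rad21, Stag2, Nipbl, Esco1, Esco2, Aurkb and Incenp. On either strand, CCAAT was found in 18 of the 31 (58.1%), against 41.1% of 27025 genes in the table, and TTTGAA in 14 of 31 (45.2%), against 20.2%. TTTGAA stood in 5 of 7 condensin genes, 3 of 5 checkpoint genes, 3 of 12 cohesin genes and 1 of 3 passenger genes. A match is only a match of letters. Below, capitals mark these motifs in 5 promoters of genes with a difference of note: a passenger kinase of germ cells, another passenger gene, separase, a condensin subunit and the only member that was higher at an unadjusted p under 0.05.
Aurkc, chr7:6995135-6995434, plus strand: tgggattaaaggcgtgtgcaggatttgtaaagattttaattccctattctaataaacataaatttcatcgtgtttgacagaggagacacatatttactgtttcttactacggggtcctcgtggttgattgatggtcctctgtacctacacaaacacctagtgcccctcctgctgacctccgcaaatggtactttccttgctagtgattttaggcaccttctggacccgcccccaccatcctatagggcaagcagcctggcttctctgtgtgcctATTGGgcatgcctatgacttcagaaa
Cdca8, chr4:124936868-124937167, minus strand: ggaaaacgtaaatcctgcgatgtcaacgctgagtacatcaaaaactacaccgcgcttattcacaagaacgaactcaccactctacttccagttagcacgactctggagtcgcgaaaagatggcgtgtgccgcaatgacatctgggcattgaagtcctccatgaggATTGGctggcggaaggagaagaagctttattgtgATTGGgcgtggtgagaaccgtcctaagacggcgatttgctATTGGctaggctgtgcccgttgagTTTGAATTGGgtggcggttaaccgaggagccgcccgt
Espl1, chr15:102296043-102296342, plus strand: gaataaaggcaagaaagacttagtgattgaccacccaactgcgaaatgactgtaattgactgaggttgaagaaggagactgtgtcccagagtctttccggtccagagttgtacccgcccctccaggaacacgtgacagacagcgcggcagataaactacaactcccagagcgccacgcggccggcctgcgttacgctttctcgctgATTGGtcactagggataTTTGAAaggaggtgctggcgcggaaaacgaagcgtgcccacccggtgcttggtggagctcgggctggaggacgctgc
Ncapg, chr5:45669675-45669974, plus strand: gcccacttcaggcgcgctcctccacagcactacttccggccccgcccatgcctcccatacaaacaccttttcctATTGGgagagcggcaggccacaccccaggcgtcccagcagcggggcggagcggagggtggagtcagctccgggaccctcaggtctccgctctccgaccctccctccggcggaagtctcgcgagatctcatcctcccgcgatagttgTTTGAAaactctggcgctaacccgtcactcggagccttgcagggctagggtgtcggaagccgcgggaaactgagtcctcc
Smc1a, chrX:152016178-152016477, plus strand: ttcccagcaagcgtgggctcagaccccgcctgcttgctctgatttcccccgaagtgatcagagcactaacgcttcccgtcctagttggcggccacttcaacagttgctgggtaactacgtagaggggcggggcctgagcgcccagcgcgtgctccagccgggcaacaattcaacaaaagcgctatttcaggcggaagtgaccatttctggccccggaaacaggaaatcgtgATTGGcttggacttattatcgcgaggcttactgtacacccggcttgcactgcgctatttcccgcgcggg

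Counting the start as base 1, with no base 0, the Espl1 window has TTTGAA at -27 to -22 and CCAAT, on the opposite strand, at -44 to -40. Ncapg holds TTTGAA at -30 to -25, close to the same place, and CCAAT farther off at -176 to -172. The Cdca8 window has 4 CCAAT boxes, all on the opposite strand, and TTTGAA at 14 to 19, which shares 1 base with the last of these boxes. In Aurkc neither strand of the window holds TTTGAA, and the only CCAAT lies after the start, at 25 to 29. Smc1a likewise has CCAAT alone, at -19 to -15. The members that were lower therefore include windows with and without TTTGAA.

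Among the 17 cohesin genes, 11 had a lower mean in knockout and 6 a higher one, with a median of -0.07. At an unadjusted p under 0.05, 3 were lower and 1 was higher. These are 17.6% and 5.88% of them, against 8.72% and 8.58% of all genes.

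Separase, encoded by Espl1, is the protease that opens cohesin at anaphase. Its only probe set stood at 9.24, 9.42 and 9.29 in knockout, against 9.82, 9.61 and 9.65 in wild type. All knockout arrays lay below all wild-type arrays, with a difference of -0.38 (SE 0.10, limma adjusted p = 0.204), which was -0.48 in the high-18S set and -0.30 in the low-18S set. Pttg1, which encodes securin, the inhibitor of separase, was bright and differed by -0.05 (SE 0.08, limma adjusted p = 0.81). Its values of 12.12, 12.08 and 12.09 in knockout overlapped those of 12.20, 12.11 and 12.13 in wild type.

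The loader of cohesin is a pair of proteins, NIPBL and MAU2. Nipbl stood at 10.70, 10.74 and 10.64 in knockout and at 11.12, 11.12 and 10.75 in wild type, a difference of -0.30 (SE 0.12, limma adjusted p = 0.293). The groups did not overlap, but wild type 3 lay only just above knockout 2, and the difference was -0.42 in the high-18S set and -0.06 in the low-18S set. All 5 Nipbl probe sets had a lower mean in knockout, from -0.32 to -0.16, 2 of them at an unadjusted p under 0.05. Mau2 had 4 probe sets, with differences from -0.22 to -0.15, none at that p.

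Pds5a and Pds5b encode proteins that bind cohesin and serve both its release and its acetylation, and Wapl encodes the release factor. Pds5a stood at 6.34, 6.18 and 6.12 in knockout, against 6.74, 6.70 and 6.39 in wild type. The groups did not overlap, with a difference of -0.40 (SE 0.12, limma adjusted p = 0.227). It was -0.38 in the high-18S set and -0.24 in the low-18S set. With array weights it passed (limma adjusted p = 0.0292, and 0.0292 to 0.553 over 16 alternatives), as did 3186 of the 45037 probe sets. These values are of the brightest Pds5a probe set. The others were dim, at means of 3.81 and 2.64 in knockout, and differed by -0.22 and -0.38 with overlapping groups. Wapl had no overlap in its brightest probe set, at 10.55, 10.60 and 10.52 in knockout and 10.72, 10.75 and 10.64 in wild type, a difference of -0.15 (SE 0.08, limma adjusted p = 0.445). Pds5b was lower without overlap as well, at 7.00, 6.99 and 6.99 in knockout against 7.04, 7.19 and 7.06 in wild type, a difference of -0.10 (SE 0.09, limma adjusted p = 0.601). Other probe sets of Wapl and Pds5b lay on both sides of 0.

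Genes of the ring itself did not lie on the same side of 0. Smc1a, an X-linked gene that encodes the SMC1 subunit of somatic cohesin, stood at 6.90, 7.16 and 7.30 in knockout, against 6.73, 6.60 and 6.65 in wild type. All knockout arrays lay above all wild-type arrays, with a difference of 0.46 (SE 0.12, limma adjusted p = 0.198) that was 0.24 in the high-18S and 0.58 in the low-18S set. With array weights it passed (limma adjusted p = 0.0238, and 0.0238 to 0.529 over 16 alternatives), as did 3186 of the 45037 probe sets. The other Smc1a probe sets differed by 0.02 and 0.11. X-linked genes mostly had higher means in knockout: 553 of 617 had a higher mean, their median difference was 0.27, and 46% were higher at an unadjusted p under 0.05. The part of this shift in the Smc1a value was not tested.

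Stag2, also X-linked, encodes a subunit that sits on the ring. Its brighter probe set differed by 0.04 (SE 0.11, limma adjusted p = 0.892), and its other one by 0.58 (SE 0.21, limma adjusted p = 0.268), with 6.53, 7.21 and 7.22 in knockout and 6.09, 6.56 and 6.58 in wild type. There knockout 1 lay within the range of wild type.

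The autosomal ring genes gave no uniform picture. Smc3, the partner of SMC1, differed by 0.06 (SE 0.09), and Rad21, the subunit that separase cuts, by -0.01 (SE 0.09) in its brightest probe set. A second Rad21 probe set stood at 8.67, 8.68 and 8.77 in knockout and at 8.09, 8.48 and 8.40 in wild type, a difference of 0.38 (SE 0.12, limma adjusted p = 0.228) without overlap. The probe sets of Rad21 thus disagree. Those of Stag1, the autosomal relative of Stag2, ran from -0.29 to 0.00, with 2 of 6 lower at an unadjusted p under 0.05.

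Sgo1 and Sgo2a encode shugoshins, which shield cohesin at centromeres. Sgo1 differed by 0.03 (SE 0.09) and Sgo2a by -0.17 (SE 0.10), both with overlapping groups. Cdca5 encodes sororin, which holds WAPL off, and differed by -0.14 (SE 0.12) in its brightest probe set and by -0.24 (SE 0.10, limma adjusted p = 0.318) in its other one. Esco1 and Esco2 encode the acetyltransferases that lock cohesin and differed by 0.04 (SE 0.10) and 0.23 (SE 0.17). The other Esco1 probe set differed by -0.26 (SE 0.12, limma adjusted p = 0.331), so the pair disagrees in sign. Esco2 ranged widely, at 6.31, 6.49 and 6.74 in knockout and 5.96, 6.30 and 6.59 in wild type. The groups overlapped, and the Esco2 difference was 0.068 without wild type 1 and 0.38 without wild type 3.

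The 8 condensin genes had a median of -0.03, with 5 below and 3 above 0. This depended on the choice of probe set: of all 22 condensin probe sets 18 had a lower mean, with a median of -0.15. At an unadjusted p under 0.05, 5 of the 22 were lower and 0 higher, against 8.31% and 6.81% of all probe sets. Ncapg, a subunit of condensin I, stood at 7.87, 8.10 and 8.03 in knockout, against 8.10, 8.26 and 8.45 in wild type. Knockout 2 equalled wild type 1, and the difference was -0.27 (SE 0.12, limma adjusted p = 0.322), with -0.31 and -0.39 in the high-18S and low-18S sets. The second Ncapg probe set differed by -0.22. Ncapd2, of the same complex, stood at 8.09, 8.48 and 8.41 in knockout and at 8.52, 8.52 and 8.70 in wild type, a difference of -0.25 (SE 0.12, limma adjusted p = 0.37) without overlap. Knockout 1 was the lowest array, and without it the difference was -0.135. Ncaph, the third of the condensin I subunits, differed by 0.04 (SE 0.11).

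Of the core subunits, Smc2 had 5 probe sets, all with a lower mean in knockout, from -0.39 to -0.17, and 3 of them at an unadjusted p under 0.05. Its brightest stood at 8.03, 8.38 and 8.27 in knockout and at 8.29, 8.49 and 8.42 in wild type, with overlap. For that probe set the difference was -0.36 in the high-18S set and -0.10 in the low-18S set. Smc4 was bright in both genotypes, at 11.92 ± 0.03 in knockout and 11.98 ± 0.11 in wild type (SD, n = 3 each). In their brightest probe sets the condensin II subunits lay near 0, Ncapd3 at -0.00, Ncaph2 at 0.08 and Ncapg2 at 0.11, all with overlapping groups. The other Ncapd3 probe sets differed by -0.16 and -0.26 without overlap. Those of Ncaph2 disagreed in sign, at -0.14, 0.16 and -0.24 with overlap.

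SMC5 and SMC6 form a further ring that acts in recombination and repair. Smc5 differed by -0.11 (SE 0.10) and Smc6 by -0.10 (SE 0.09) in the brightest probe set. All 6 Smc6 probe sets had a lower mean in knockout, 3 without overlap. The largest of these differences was -0.42 (SE 0.13, limma adjusted p = 0.228), with 9.76, 9.54 and 9.57 in knockout against 10.05, 10.25 and 9.82 in wild type. In the brightest Smc6 probe set, by contrast, the difference was -0.23 in the high-18S set and 0.05 in the low-18S set.

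The type II topoisomerases, which pass DNA strands through each other, lay on opposite sides of 0. Top2a, the form of dividing cells, stood at 10.10, 10.11 and 10.14 in knockout and at 10.25, 10.31 and 10.24 in wild type, a difference of -0.15 (SE 0.08, limma adjusted p = 0.419) without overlap. Top2b, the form that non-dividing cells also express, stood at 7.78, 8.10 and 8.16 in knockout and at 7.65, 7.82 and 7.88 in wild type, a difference of 0.23 (SE 0.12, limma adjusted p = 0.415) with overlap. The other probe sets of Top2b differed by -0.07 and -0.13.

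Among the 5 checkpoint genes the median was -0.10, and 4 had a lower mean in knockout. In their brightest probe sets the unadjusted limma p-values were 0.0546 or more. Ttk, which encodes the kinase MPS1 that starts the checkpoint signal, stood at 9.16, 9.23 and 9.08 in knockout, against 9.28, 9.45 and 9.35 in wild type. The groups did not overlap, with a difference of -0.20 (SE 0.09, limma adjusted p = 0.34). Bub1, a kinase that marks centromeres for shugoshin, stood at 10.22, 10.23 and 10.12 in knockout and at 10.28, 10.34 and 10.24 in wild type, a difference of -0.10 (SE 0.09, limma adjusted p = 0.626) without overlap. Bub1b, which encodes BUBR1, an inhibitor of the anaphase promoting complex, had 3 probe sets with differences from -0.20 to -0.15. Bub3, the partner of both BUB proteins, differed by -0.04 (SE 0.08) in its brightest probe set. Its other probe sets ran from -0.30 to 0.20, with 1 lower and 1 higher without overlap, the higher one dimmer than the lower quartile. Mad2l1, which encodes MAD2, the protein that binds CDC20, stood at 8.48, 8.68 and 8.83 in knockout and at 8.54, 8.60 and 8.83 in wild type, a difference of 0.01 (SE 0.12).

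**Figure D3:**
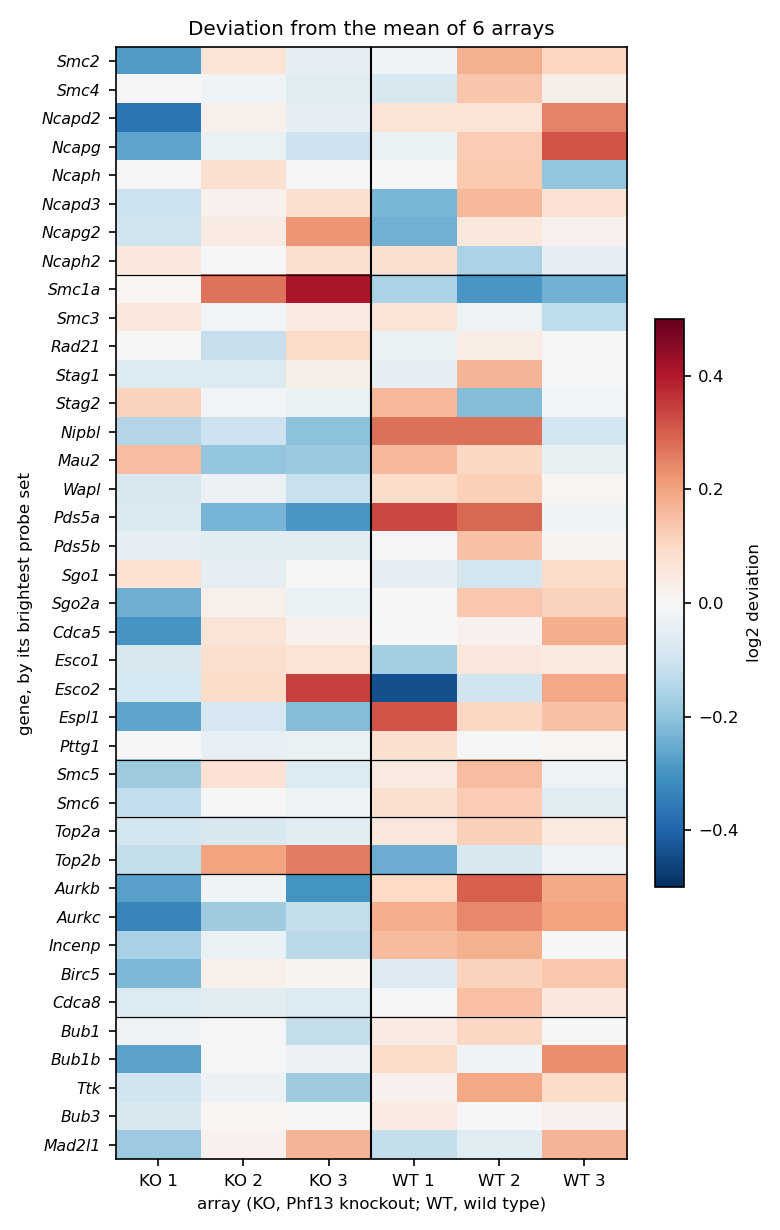
Deviation of each array from the gene's mean over 6 arrays, in log2 units (colour), for the 39 genes from top to bottom by group and the arrays from left to right. Knockout 1 was the lowest array for 17 genes and wild type 2 the highest for 17.

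Single arrays stood out among these genes. Knockout 1 was the lowest of the 6 arrays for 17 of 39 genes and the highest for 0, and wild type 2 was the highest for 17 and the lowest for 4. Both belong to the high-18S set. Of the 39 genes, 30 were lower in knockout inside the high-18S set, 29 inside the low-18S set and 25 in both, against 6333 of 18193 genes in both. All 5 passenger and all 5 checkpoint genes were lower in both sets, Mad2l1 included although its mean over all arrays was not, and neither SMC5/6 gene was. The median over the members was -0.13 in the high-18S set and -0.07 in the low-18S set. Without knockout 1 it was -0.06 and without wild type 2 -0.07. Without knockout 1, Smc2 differed by -0.075, Sgo2a by -0.087, Cdca5 by -0.027 and Bub1b by -0.12 in their brightest probe sets.

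Other genes of the same pathways mostly lay on the same side. Of 73 such genes on the array, 56 had a lower mean in knockout, with a median of -0.08, and none passed the threshold. These were 76.7% of them, to be read against the same 47.9% and 56.4%. At an unadjusted p under 0.05, 3 were lower and 1 was higher, 4.11% and 1.37% of them, which is below the share of all genes. The 6 meiotic cohesin and partner genes had a median of -0.20. In that list Smc1b, the germ-line form of SMC1, stood at 10.15, 10.20 and 10.22 in knockout against 10.49, 10.35 and 10.35 in wild type, a difference of -0.21 (SE 0.09, limma adjusted p = 0.314) without overlap. Stag3, the germ-line form of STAG1, differed by -0.31 (SE 0.14, limma adjusted p = 0.335), and the helicase gene Ddx11 by -0.19. Smc1a and Smc1b, the somatic and the germ-line gene for the same ring position, thus had differences of opposite sign; the contrast between them was not tested.

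Checkpoint signalling genes outside the 39 all had a lower mean in knockout, 12 of 12, with a median of -0.12. Plk1, the Polo kinase, stood at 8.95, 9.04 and 8.76 in knockout and at 9.25, 9.24 and 9.18 in wild type, a difference of -0.31 (SE 0.10, limma adjusted p = 0.242) without overlap; Zw10 differed by -0.16 and Trip13 by -0.15. The 32 kinetochore genes had a median of -0.06, with Knl1, a docking site for BUB proteins, at -0.25, Cenpo at -0.23 and X-linked Cenpi at 0.21. The 18 genes of the anaphase promoting complex and its partners had a median of -0.09. Among them the activator Fzr1 differed by -0.23 and the subunit Cdc27 by -0.17. Another subunit, Cdc23, differed by 0.36 (SE 0.11, limma adjusted p = 0.237) and was the only gene of these lists higher at an unadjusted p under 0.05. The 5 further SMC5/6 subunits had a median of -0.04, with Nsmce2 at -0.12, Nsmce3 at -0.08 and Nsmce4a at 0.10.

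**Figure D4:**
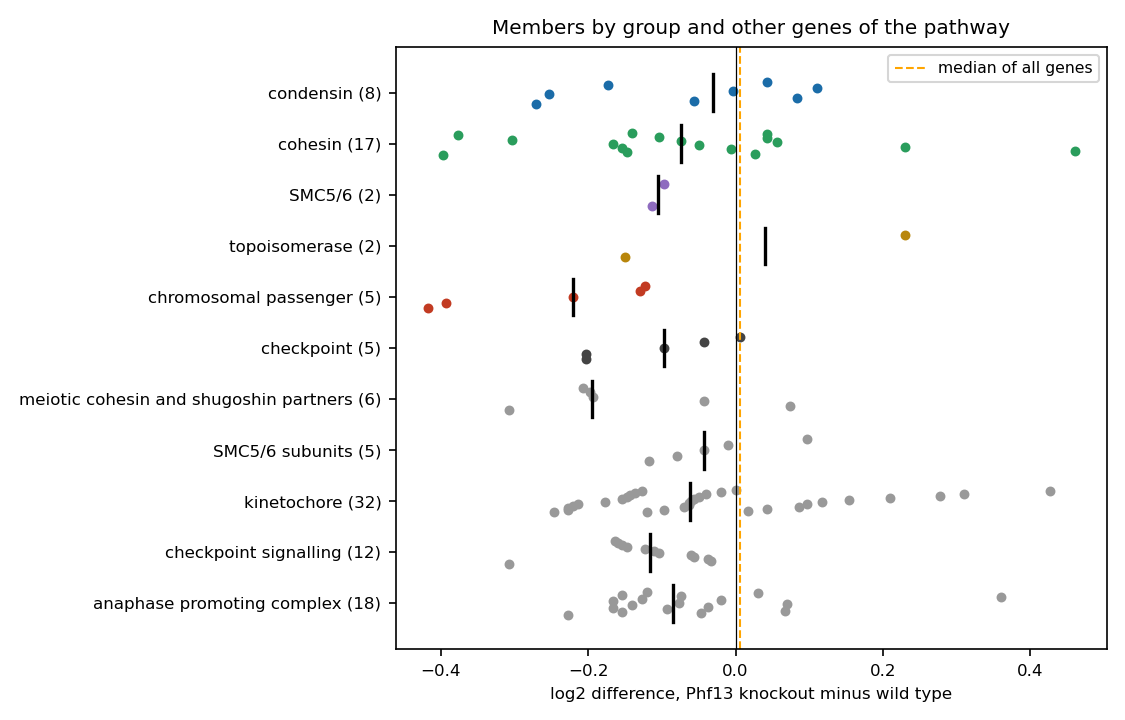
Log2 difference, Phf13 knockout minus wild type, for each gene (points) of the 6 member groups (coloured) and of 5 lists of other genes (grey), with the number of genes in brackets. Vertical bars are medians and the dashed line is the median of all genes, 0.01; the passenger genes have the lowest median, -0.22, and the meiotic cohesin list follows at -0.20.

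Markers of testis cell types were read on the same arrays. Of 10 spermatocyte markers 5 were above and 5 below 0. At an unadjusted p under 0.05, 2 were lower and 0 higher, against 8.72% and 8.58% of all genes. Their summed unlogged level was 30129 to 30564 in knockout and 30315 to 31556 in wild type. Of 6 spermatogonia markers 3 were above and 3 below 0, with 1 lower at that p and 0 higher. Their summed level was 2003 to 2192 in knockout and 2209 to 2327 in wild type, ranges that did not overlap. The brightest marker, at 10.42, weighs most in that sum. The median difference of the list was 0.025, and its mean log2 level was 7.47 in knockout and 7.46 in wild type. All 12 Sertoli cell markers were above 0, 8 at an unadjusted p under 0.05, with a median of 0.42 and a summed level of 14633 to 16007 in knockout against 10937 to 11832 in wild type. Of 7 markers of myoid cells and stroma 6 were above 0, 4 at that p, with summed levels of 2694 to 3712 in knockout and 2015 to 2137 in wild type. All 5 Leydig cell markers were above 0, 2 at that p, with summed levels of 3584 to 5166 in knockout and 3132 to 4000 in wild type. The 8 leukocyte markers were all above 0 too, at 700 to 1210 in knockout and 748 to 930 in wild type, with Cd3g below the lower quartile. The 4 adipose markers were above 0, 3 at that p. Their summed level was 501 to 718 in knockout and 353 to 461 in wild type, with Cidec below the lower quartile. Spermatid markers lay near 0, with a median of 0.01 and summed levels of 77358 to 78789 in knockout and 76498 to 79680 in wild type. Epididymis markers had a median of 0.03, at 124 to 137 in knockout and 110 to 135 in wild type. No leukocyte, spermatid or epididymis marker had an unadjusted p under 0.05. The part of the cell makeup in the differences of the 39 genes was not tested.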

How the data were processed

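Affymetrix arrays, 1 per sample, measured RNA of whole testis from Phf13 knockout (3 arrays) and wild-type mice (3 arrays). The authors deposited log2 values, 1 per probe set; the submitters' processing notes name Expression Console 1.4.1. That they are log2 follows from their range. Summarization, normalization and build are not given in the labels or headers used here. Of 45101 probe sets, 64 controls were left out and 45037 tested with no filter. Platform annotation named 34945 with 1 symbol, 932 with several and 9160 with none. For each gene, its brightest probe set (mean of 6 arrays) was taken. In R 4.3.3, limma 3.58.1 (lmFit, eBayes, two-sided, Benjamini-Hochberg over all probe sets, threshold 0.05) gave all p-values; counts at an unadjusted p used 0.05. The procedure was tested on simulated data. No pair of arrays was identical (smallest root mean square difference 0.17).

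The members, lists, naming rule, fit and alternatives were chosen with earlier results of these data known, so no set test was run. Members with an unadjusted p under 0.05 or groups without overlap were given array by array, with examples from the other roles, and the 3 genes with the smallest p from each list of other genes; further probe sets were named after their values were seen. Promoters came from RefSeq (GRCm38.p6). Replicate numbers were not taken to pair the arrays in the main fit. Deviations of same-numbered arrays correlated at 0.26, 0.07 and 0.12, and those of differently numbered arrays at -0.20 to 0.13. The number of arrays limits the precision.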

Additional observations from a re-analysis of the deposited data

How the results depend on the processing

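No member passed the adjusted threshold under 16 of 17 alternatives, and 3 (Aurkc, Pds5a and Smc1a) passed with array weights, a setting in which 3186 probe sets of the whole array passed, against 45. That total was 28 with the replicate block, 16 with title code runs as a block, 79 among probe sets above the median, 110 with trend and robust moderation, 100 at a threshold of 0.1, and 12 (without wild type 2) to 1176 (without wild type 3) when an array was left out, with 166 without knockout 1. The count of members lower at an unadjusted p under 0.05, 7, was 11 with probe sets averaged per gene and 4 to 6 without an array, the 4 being without knockout 3 or wild type 2. The count of higher members, 1, was 3 with the replicate block, 2 with quantile normalization and with array weights, and 1 to 2 without an array. The replicate block changed no call of a member. The members' median kept its sign throughout, from -0.12 to -0.062 without an array. Of 621 single-gene values under alternatives 28 had the other sign, all for members whose unadjusted p was 0.05 or more; the cause was not tested. With averaged probe sets these were Ncaph (-0.017), Ncaph2 (-0.034), Rad21 (0.26), Sgo1 (-0.0033) and Esco1 (-0.11); with plain _at probe sets, which leave out Ncapg, Aurkb and Birc5, Ncaph (-0.077) and Ncaph2 (-0.14); with quantile normalization, Ncapd3 (0.045) and Rad21 (0.045); with title code runs, Ncapg2 (-0.0014), Esco1 (-0.046) and Mad2l1 (-0.094); and with the 18S sets as a block, Mad2l1 (-0.0825). Without an array, Ncaph ran from -0.045 to 0.12, Ncapd3 from -0.12 to 0.077, Rad21 from -0.057 to 0.048, Stag2 from -0.053 to 0.14, Sgo1 from -0.013 to 0.082, Esco1 from -0.032 to 0.095 and Mad2l1 from -0.077 to 0.098. All 5 passenger genes stayed below 0 in every alternative that held them. TTTGAA or TTCGAA stood in 18 member promoters, against 14 with TTTGAA. Dim probe sets are limited by background, which was not measured.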
